A study of Mus musculus with 18 samples.

Results

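The gene expression of colonic epithelium from the proximal colon of Rab11-FIP1 knockout mice was compared with that of wild-type mice, gene by gene. The members of the comparison are 6 of the 18 RNA-seq libraries of the series: 3 from animals whose genotype is labelled Rab11-FIP1 KO and 3 labelled wild type, which the series names BL6J. The other 12 libraries are the distal colon of both genotypes and the proximal and distal colon of a Rab11-FIP2 knockout, and they enter through the shared estimate of the spread and where a difference is set against them. All groups were untreated, and no age or sex is given. The knockout is not described as restricted to a cell type, and neither the deleted exons nor the strain background of the knockout lines is given in the sources used here. The epithelium was pulled off fresh tissue with fine forceps in PBS with 30 mM EDTA, so the libraries hold whatever other cells came away with it.

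Rab11-FIP1, also called Rab coupling protein, belongs to a family of adaptors that bind the small GTPases Rab11 and Rab25 on recycling endosomes. Recycling endosomes return internalised receptors and transporters to the cell surface, and in polarised epithelium they feed the apical membrane. The proximal colon absorbs water and short-chain fatty acids and carries absorptive colonocytes, mucus-producing goblet cells, hormone-producing enteroendocrine cells and chemosensory tuft cells above dividing crypt cells.

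The targeted gene, Rab11fip1 (chr8:27138773-27174646, GRCm38, minus strand), was measured at 146, 93.0 and 175 CPM (read counts scaled to a common library size) in wild-type libraries 1, 2 and 3 and at 67.0, 82.5 and 53.0 CPM in knockout libraries 1, 2 and 3. In this and every later sentence of the kind, values stand in the order of libraries 1 to 3. The knockout libraries were all lower, with knockout library 2 close to wild-type library 2. Rab11fip1 fell by 1.03 ± 0.22 (standard error, SE) on the log2 scale, with an adjusted p of 0.0036 by edgeR's quasi-likelihood test with Benjamini-Hochberg adjustment over all genes tested. Without wild-type library 2 the difference was -1.25 (adjusted p 0.00042). Reads of the gene therefore remained in the libraries labelled knockout, and the count per gene does not show which exons they came from. Its relative Rab11fip2 was at 4.93, 8.68 and 6.22 CPM in wild type and 3.34, 6.37 and 4.45 CPM in the knockout, a log2 difference of -0.48 ± 0.27 that did not pass (adjusted p 0.28).

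The epithelial markers were high in all 6 libraries, with Epcam, an epithelial adhesion protein, between 1534 and 1861 CPM and Car1, a carbonic anhydrase abundant in proximal colonocytes, between 16332 and 27119 CPM. Total counts ran from 11193308 to 20606382 per library. Wild-type library 2 stood apart: its log2 CPM correlated with the other wild-type libraries at 0.942 and 0.957 (Pearson, across genes), where those correlated with each other at 0.976. It carried more transcripts of forebrain neurons and of macrophages than the other wild-type libraries. The count of each list is therefore given with and without it, and where the difference of a gene is printed the value without it stands beside it if the call changed or the value moved by more than 1.5 times. Mitochondrially encoded genes took 23.9% ± 3.35 (SD, n = 3) of the counts in wild type and 15.7% ± 4.10 (SD, n = 3) in the knockout, and their part in other differences was not tested. The labels do not tell whether each library is a different animal, and p-values measure only the spread between these libraries, which may be technical.

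Of 54532 genes in the files, 17692 had counts high enough to be tested, and 2404 of them (13.6%) were called at an adjusted p under 0.05. They divided into 1185 genes higher in the knockout (6.70% of those tested) and 1219 lower (6.89%). Every count of called list members below is to be read beside these shares. The 3 knockout libraries lay all above the 3 wild-type libraries for 13.0% of the genes tested and all below for 13.7%. Large differences were common on both sides: 349 genes were called at least 4-fold higher and 357 at least 4-fold lower, and at 32-fold the counts were 90 and 35. The median log2 difference over all tested genes was −0.01. The even split was not seen on log2(FPKM + 1), where FPKM is the deposited value scaled by transcript length and library size. There limma called 1812 genes of which 70.6% were higher, against 49.3% in counts, and the median of all genes moved to 0.13. That run also differed in its test, filter and normalization, and which of these moved the split was not tested.

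Without wild-type library 2, 2334 of 18363 genes tested were called (12.7%), 1201 higher (6.54%) and 1133 lower (6.17%). Of the 1185 higher genes 918 were called again (77.5%), and of the 1219 lower genes 840 (68.9%). No gene was called in opposite directions. Leaving out knockout library 1 lowered the count to 1509, and a fit to the 6 proximal libraries alone, with its own estimate of the spread, called 1287.

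**Figure D1:**
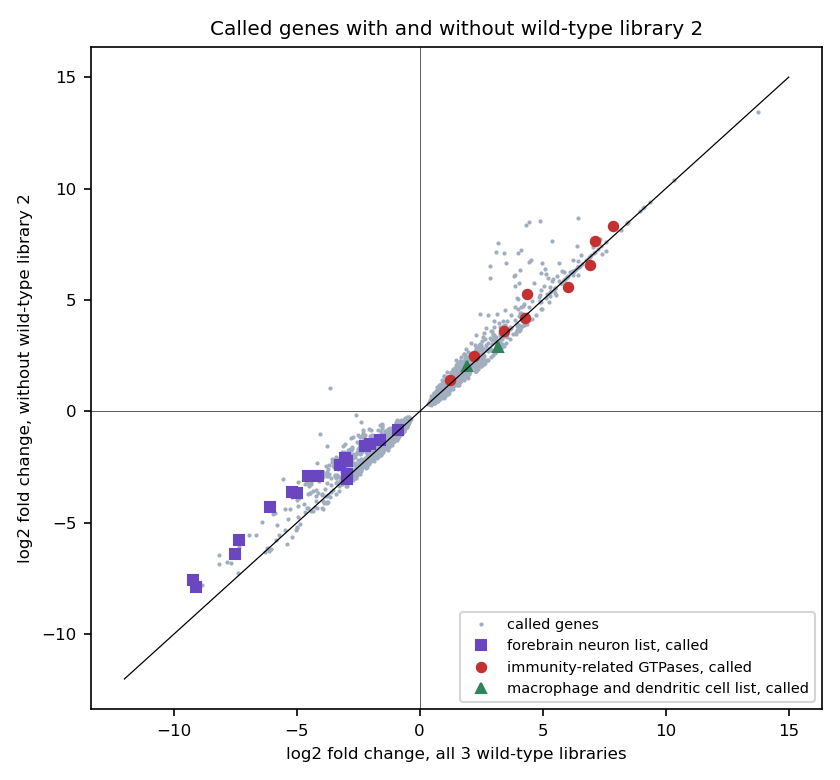
Log2 difference between FIP1 knockout and wild type of every called gene with all 3 wild-type proximal libraries (horizontal axis) and without wild-type library 2 (vertical axis); each point is a gene, and marked symbols are called members of the immunity-related GTPase, forebrain, and macrophage and dendritic cell lists. The 9 immunity-related GTPases lie above 1 on both axes, with Gm12250 moving from 4.37 to 5.29, and 17 of the 18 called forebrain genes lie nearer to 0 once wild-type library 2 is left out.

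The strongest coordinated rise was in interferon-stimulated genes, the set that cells switch on after interferon binds its receptor. Interferon receptors signal through JAK kinases to STAT transcription factors, which act on short promoter elements, the interferon-stimulated response element (ISRE) and the gamma-activated site. Immunity-related GTPases (IRG) and guanylate-binding proteins (GBP) then attach to the vacuoles in which intracellular bacteria and parasites live. In bulk RNA a change in the number of cells of a type cannot be told apart from a change in RNA per cell, here and in every group below.

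The 250 bases upstream of the start site are shown for 4 of these genes, to put the element beside the values that follow. They were picked among genes called higher whose window holds a match. Sequences are from RefSeq on GRCm38.p6, written 5′ to 3′ in the direction of transcription, and capitals mark each match to GAAA, any 2 bases and GAAA again, on either strand. Igtp lies at chr11:58199306-58199555, plus strand, Gbp2 at chr3:142620413-142620662, plus strand, Gbp7 at chr3:142530086-142530335, plus strand, and Isg15 at chr4:156200819-156201068, minus strand.
Igtp: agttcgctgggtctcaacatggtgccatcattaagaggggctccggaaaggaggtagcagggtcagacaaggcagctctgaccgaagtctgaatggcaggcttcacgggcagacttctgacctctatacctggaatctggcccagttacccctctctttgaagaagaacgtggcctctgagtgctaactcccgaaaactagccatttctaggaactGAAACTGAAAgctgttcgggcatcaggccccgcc
Gbp2: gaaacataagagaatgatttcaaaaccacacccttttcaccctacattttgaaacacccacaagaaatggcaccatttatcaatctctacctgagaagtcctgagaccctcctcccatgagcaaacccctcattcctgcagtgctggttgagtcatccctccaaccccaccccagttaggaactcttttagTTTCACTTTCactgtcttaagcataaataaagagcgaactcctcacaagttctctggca
Gbp7: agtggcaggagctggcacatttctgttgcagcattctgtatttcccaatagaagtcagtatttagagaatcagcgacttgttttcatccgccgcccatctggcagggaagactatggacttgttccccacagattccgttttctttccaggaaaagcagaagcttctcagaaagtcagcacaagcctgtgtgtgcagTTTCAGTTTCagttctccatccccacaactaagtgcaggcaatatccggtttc
Isg15: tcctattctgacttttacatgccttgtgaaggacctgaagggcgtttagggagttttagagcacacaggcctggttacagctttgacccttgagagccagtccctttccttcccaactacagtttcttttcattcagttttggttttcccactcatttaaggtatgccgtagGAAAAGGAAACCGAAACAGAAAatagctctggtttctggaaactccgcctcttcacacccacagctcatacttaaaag
The nearest match ends 24 bases before the start of Igtp, and in Gbp2 and Gbp7 the match reads on the opposite strand, 49 and 43 bases before the start. Isg15 carries 3 overlapping matches, the nearest 56 bases before its start. That pattern occurs in the same window of 3.46% of the 27025 genes with a promoter in the RefSeq table. It occurs in 6 of the 6 tested IRG genes and 4 of the 4 tested GBP genes that the table holds. It also occurs in 14 of 29 antiviral genes (48.3%), in 4 of 25 interferon signalling genes and in 0 of 16 heat shock genes. Of these 29 antiviral genes 23 were called higher, and 11 of the 23 carried it, a share close to that of all 29. The gamma-activated site, searched as TTCNNNGAA, occurs in 8.13% of all promoters, in 5 of the 6 IRG genes and in 2 of the 4 GBP genes. A match describes the letters of the window and does not show that a factor was bound there.

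All 9 tested IRG genes were called higher, beside 6.70% of all genes, with a median log2 difference of 4.37 beside −0.01 over all genes, and 9 of 9 were called without wild-type library 2, where the median was 5.29. Igtp (IRGM3), a regulator of the vacuole-attacking GTPases, was at 6.79, 8.68 and 5.17 CPM in wild type and 114, 47.5 and 58.1 CPM in the knockout. The groups were far apart, with knockout library 1 highest. Igtp rose by 3.42 ± 0.39 (SE; adjusted p 9.4e-06, edgeR), and by 3.62 without wild-type library 2. Irgm2, another regulator of the family, went from 10.8, 16.2 and 9.30 CPM to 66.2, 47.0 and 54.8 CPM and rose by 2.22 ± 0.28 (adjusted p 2.6e-05), again without overlap. Iigp1, an effector GTPase, was nearly silent in wild type at 0.0808, 0.659 and 0.450 CPM and reached 138, 52.5 and 78.5 CPM in the knockout, 7.87 ± 0.59 on the log2 scale (adjusted p 6.0e-08). Igtp and Irgm2 overlap on the chromosome and the IRG genes include near-identical copies such as Tgtp1 and Tgtp2, so reads may be shared among them.

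Of 9 tested GBP genes 8 rose and 0 fell, with a median of 3.06, and 8 rose without wild-type library 2. Gbp2 measured 4.04, 7.80 and 4.80 CPM in wild type and 167, 61.3 and 51.3 CPM in the knockout, and Gbp7 3.64, 4.07 and 4.42 CPM and 44.2, 31.1 and 27.7 CPM. In both genes the lowest knockout library was several times the highest wild-type library. Gbp2 rose by 4.09 ± 0.47 (adjusted p 1.1e-05), Gbp7 by 3.08 ± 0.27 (adjusted p 4.2e-07) and Gbp3 by 3.45 ± 0.35 (adjusted p 3.2e-06), all by edgeR. Gbp4, Gbp8 and Gbp9 overlap one another, and their separate values are uncertain.

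**Figure D2:**
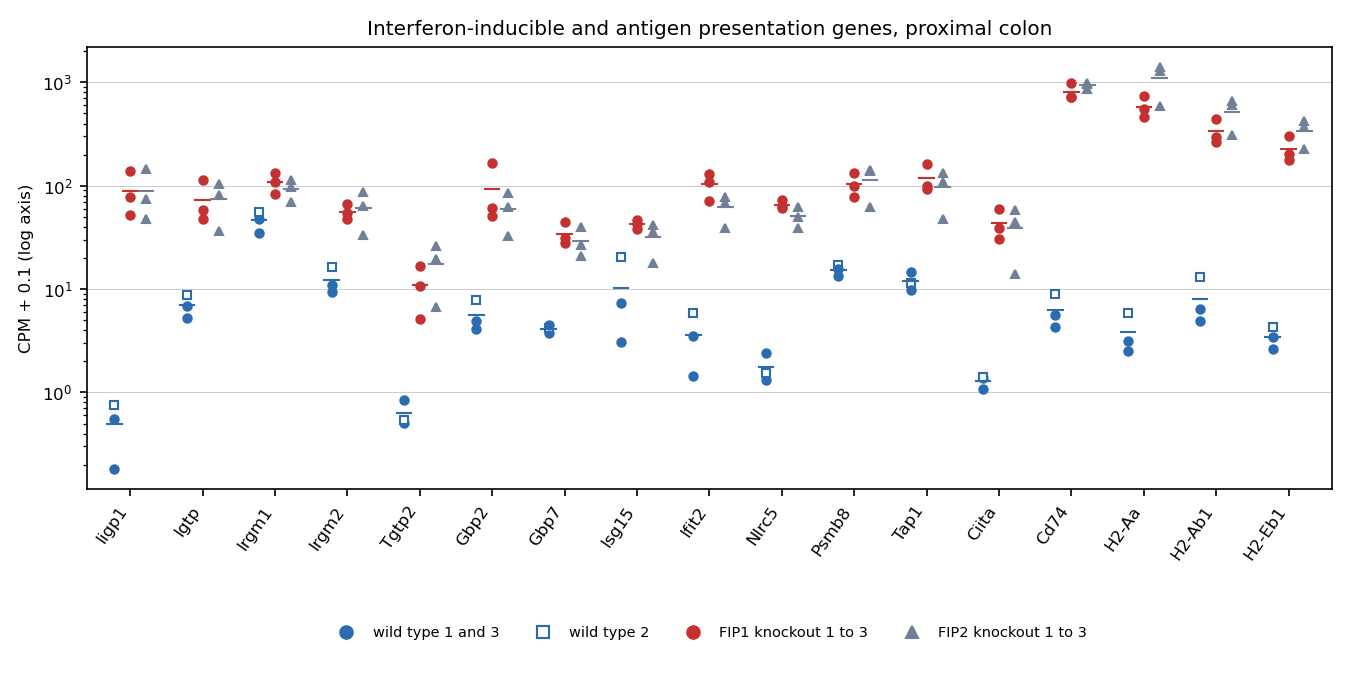
Level of 17 interferon-response and antigen-presentation genes in the proximal libraries, as CPM + 0.1 on a log axis; points are libraries (wild type 1 and 3, wild type 2 as an open square, FIP1 knockout, FIP2 knockout as triangles) and bars are group means. For all 17 genes the 3 FIP1 knockout points lie above the 3 wild-type points, and the range of the FIP2 knockout points overlaps that of the FIP1 knockout.

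Antiviral genes that all types of interferon induce rose as well: 32 of 39 were called higher and 1 lower (31 and 0 without wild-type library 2), with a median of 1.52. Zbp1, a sensor of Z-form nucleic acid that can trigger necroptosis, was at 11.2, 30.0 and 10.1 CPM in wild type and 137, 154 and 101 CPM in the knockout and rose by 2.95 ± 0.32 (adjusted p 6.2e-06), or by 3.62 without wild-type library 2. Herc6, the enzyme that attaches Isg15 to proteins in the mouse, rose by 2.44 ± 0.28 and Trim30a, an inducible ubiquitin ligase, by 2.86 ± 0.37. Oas1a, a sensor of double-stranded RNA, went from 43.7, 45.6 and 41.3 CPM to 114, 111 and 102 CPM, a smaller rise of 1.33 ± 0.18 (adjusted p 7.9e-05). Isg15 itself was at 7.19, 20.1 and 3.0 CPM in wild type and 46.2, 42.1 and 38.2 CPM in the knockout. Its wild-type library 2 was higher than the other 2, and its difference of 2.10 ± 0.47 (adjusted p 0.0057) became 3.06 without that library. The 1 gene called lower, Ifit1bl2, lost its call without wild-type library 2 (adjusted p 0.084).

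The machinery that carries the signal moved less. Of 29 interferon receptors, kinases, transcription factors and inhibitors, 8 rose and 1 fell, with a median of 0.25, and 6 and 1 without wild-type library 2 (5 and 1 without knockout library 2). Stat2, a transcription factor downstream of the receptors for interferons alpha, beta and lambda, was at 38.5, 25.4 and 35.6 CPM in wild type and 85.4, 104.95 and 67.4 CPM in the knockout and rose by 1.37 ± 0.25 (adjusted p 0.0011). Socs1 and Socs3, feedback inhibitors of the JAK kinases, rose by 2.0 ± 0.38 and 2.32 ± 0.45 (adjusted p 0.0014 and 0.0019). The receptor chains Ifngr1 and Ifngr2 were not called, at 0.29 ± 0.20 and 0.02 ± 0.19. Irf3, which acts upstream of interferon production, fell by 0.58 ± 0.14 (adjusted p 0.010) and lost the call without wild-type library 3.

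Antigen presentation rose in both of its branches. MHC class I shows peptides from inside the cell to CD8+ T cells, and MHC class II shows peptides to CD4+ T cells and is induced in gut epithelium through the co-activator CIITA. Of 27 class I and peptide-processing genes 17 rose and 1 fell (17 and 1 without wild-type library 2), with a median of 0.86. Tap1, a subunit of the peptide pump, was at 14.5, 11.4 and 9.60 CPM in wild type and 164, 93.2 and 99.4 CPM in the knockout, and rose by 3.32 ± 0.33 (adjusted p 1.8e-06). The class I molecules H2-Q6 and H2-Q7, whose reads may be shared, rose by 3.95 ± 0.34 and 4.12 ± 0.38. Nlrc5, the class I co-activator, rose by 5.28 ± 0.35 from 1.21, 1.43 and 2.32 CPM to 72.6, 63.7 and 60.1 CPM (adjusted p 1.4e-08). The 1 gene that fell, H2-T3, which encodes the thymus leukaemia antigen of gut epithelium, had a log2 difference of -0.89 ± 0.23 (adjusted p 0.015). Its call was lost without wild-type library 3, knockout library 1 or knockout library 2.

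Of 11 class II genes 7 rose and 0 fell, with or without wild-type library 2, and their median of 5.18 was the highest of the lists with at least 10 tested genes. Ciita was at 1.29, 1.32 and 0.975 CPM in wild type and 60.0, 30.4 and 38.9 CPM in the knockout, 5.18 ± 0.58 on the log2 scale (adjusted p 7.6e-06). H2-Aa and H2-Eb1, chains of the class II molecule, were at 3.07, 5.82 and 2.40 CPM and 2.5, 4.18 and 3.37 CPM in wild type. In the knockout they reached 734, 552 and 465 CPM and 301, 202 and 177 CPM. No wild-type library came near a knockout library, and the rises were 7.31 ± 0.53 and 6.09 ± 0.41 (adjusted p 4.7e-08 and 1.4e-08). The peptide-loading chains H2-DMa and H2-DMb1 rose by 4.0 ± 0.34 and 6.57 ± 0.47. Ctss, the protease that trims the invariant chain, was not called, at 349.7, 539.8 and 400.2 CPM in wild type and 254, 306 and 209.8 CPM in the knockout.

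Class II genes are also markers of professional antigen-presenting cells. Of 24 tested macrophage and dendritic cell markers 2 were called higher and 0 lower (4 and 0 without wild-type library 2). Their median log2 difference was 0.21, and 1.58 without wild-type library 2. Their summed level was 383, 655 and 431 CPM in wild type and 331, 394 and 281 CPM in the knockout. Most of that sum in every library was Ctss, which this list also holds, so the sum says little about the other markers. Csf1r, the macrophage growth factor receptor, was at 0.404, 16.0 and 0.60 CPM and 2.21, 1.93 and 0.784 CPM, and Adgre1, which encodes F4/80, at 0.162, 7.69 and 0.225 CPM and 0.802, 1.22 and 0.349 CPM, each highest in wild-type library 2. Itgax (CD11c), also found on intraepithelial T cells, rose by 3.18 ± 0.67 (adjusted p 0.0036). How much of the class II rise these cells carried was not tested.

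The promoters of H2-Eb1 and H2-Aa, both called higher, are shown because they carry another element, the Y box of the class II enhanceosome. It was searched as CTGATTGG on both strands and is marked in capitals. The window of H2-Eb1 is chr17:34305617-34305866, plus strand and that of H2-Aa chr17:34287824-34288073, minus strand, both RefSeq on GRCm38.p6.
H2-Eb1: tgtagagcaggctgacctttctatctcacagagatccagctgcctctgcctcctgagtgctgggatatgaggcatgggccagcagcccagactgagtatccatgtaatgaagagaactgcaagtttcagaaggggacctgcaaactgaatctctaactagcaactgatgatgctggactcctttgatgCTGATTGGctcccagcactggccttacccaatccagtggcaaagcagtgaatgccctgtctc
H2-Aa: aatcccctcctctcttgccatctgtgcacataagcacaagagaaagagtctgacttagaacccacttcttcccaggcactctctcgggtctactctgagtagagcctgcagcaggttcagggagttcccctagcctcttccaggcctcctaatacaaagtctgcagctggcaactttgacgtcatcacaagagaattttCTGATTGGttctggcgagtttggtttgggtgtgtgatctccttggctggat
The match lies 54 bases before the start of H2-Eb1 and 43 before that of H2-Aa. CTGATTGG occurs in 4.43% of all promoters of this length, in 3 of 8 tested class II genes in the table (37.5%) and in 6 of 20 class I genes (30%). The match is not particular to antigen presentation genes. It occurs in 7 of 26 cholesterol genes (26.9%) and 2 of 16 heat shock genes (12.5%), and in 0 of 29 antiviral genes.

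Most chemokine and cytokine genes were not called, and their counts stand beside 6.70% of all genes called higher and 6.89% lower. Of 21 chemokine genes 4 rose and 3 fell, the same numbers without wild-type library 2. The rises numbered 2 without wild-type library 1, and the falls ranged from 0 without knockout library 3 to 4 without wild-type library 3. Ccl2 and Ccl25, the other chemokines that fell, each lost the call when any of 5 libraries was left out. Cxcl9, which attracts T cells and is induced by interferon gamma, was at 0.0808, 0.769 and 0.0750 CPM in wild type and 14, 3.87 and 7.80 CPM in the knockout and rose by 4.95 ± 0.62 (adjusted p 2.9e-05), or by 6.65 without wild-type library 2. Cxcl5, a neutrophil attractant, was at 4.12, 6.70 and 0.300 CPM in wild type and 0.401, 0.788 and 0.218 CPM in the knockout and fell by 3.01 ± 0.73 (adjusted p 0.0091). Wild-type library 3 lay among the knockout libraries, and the call was lost without knockout library 3. Without wild-type library 2 the difference was -2.28 (adjusted p 0.049). Of 17 cytokine genes 3 rose and 1 fell (5 and 1 without wild-type library 2), among them Il18bp, the soluble inhibitor of interleukin 18, at 7.35, 7.47 and 8.85 CPM and 28.3, 22.1 and 22.3 CPM, 1.61 ± 0.23 on the log2 scale (adjusted p 0.00011). Ifng, the gene of interferon gamma itself, was too low to be tested, with 0, 0 and 0 reads in wild type and 1, 4 and 6 in the knockout.

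Most genes of lytic cell death were not called, but several of its central components rose. The counts in this paragraph stand beside 6.70% of all genes called higher and 6.89% lower. Ripk3, the kinase that starts necroptosis, was at 25.1, 20.9 and 27.0 CPM in wild type and 77.1, 77.4 and 54.7 CPM in the knockout, with no overlap. It rose by 1.51 ± 0.16 (adjusted p 3.8e-06), and its substrate Mlkl, which breaches the plasma membrane, by 1.18 ± 0.18 (adjusted p 0.00022). Casp4 (caspase-11), a receptor for cytosolic lipopolysaccharide, rose by 0.99 ± 0.19. In all, 4 of 23 gasdermin, caspase and necroptosis genes rose and 2 fell (3 and 1 without wild-type library 2). The falls were of the gasdermins Gsdma and Gsdme, whose calls were lost when any of 5 and of 3 libraries was left out, the former also without wild-type library 2. Of 19 sensors of microbes 2 rose and 1 fell, with or without wild-type library 2: Ripk2, the kinase of the Nod receptors, by 1.07 ± 0.19, Tmem173 (STING) by 2.07 ± 0.39, and Tlr5, the flagellin receptor, at -1.16 ± 0.31. The Tlr5 call was lost when any of 4 libraries was left out. Of 16 NF-kB genes 4 rose and 0 fell (4 and 1 without wild-type library 2, 2 and 0 without wild-type library 3). Among the 4 was Nfkbia, the inhibitor of NF-kB, which rose by 0.69 ± 0.15.

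Secreted antimicrobial proteins showed some of the largest single rises. Pla2g2a, a phospholipase that destroys bacterial membranes, was at 0.485, 0.440 and 0.525 CPM in wild type and 81.5, 150.0 and 198 CPM in the knockout. The wild-type libraries were near the detection limit and every knockout library was far above it, a rise of 8.18 ± 0.46 (adjusted p 3.9e-09, edgeR). The annotation lists Pla2g2a (chr4:138831857-138835186) as a polymorphic pseudogene, since its coding sequence differs between inbred strains, and it overlaps Pla2g5, which rose by 5.66 ± 0.42 (6.67 without wild-type library 2). In the Rab11-FIP2 knockout Pla2g2a was at 10.6, 12.9 and 7.79 CPM, and the FIP1 knockout exceeded it by 3.78 ± 0.33 (adjusted p 9.8e-07). A strain difference at this locus cannot be told apart from the knockout here. Pla2g4c, a cytosolic phospholipase, rose from 3.07, 4.07 and 1.65 CPM to 107, 195 and 39.4 CPM.

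Reg3b, a lectin that binds Gram-negative bacteria, was already abundant in wild type, at 434, 250.2 and 166 CPM, and reached 9312, 11959.8 and 8932 CPM in the knockout, a rise of 5.15 ± 0.77 (adjusted p 0.00018). Sycn, a secretory granule protein, was at 52.8, 117 and 26.2 CPM in wild type and 3.21, 5.51 and 10.4 CPM in the knockout and fell by 3.32 ± 0.46 (adjusted p 8.1e-05), with a difference of -2.59 without wild-type library 2. In all, 8 of 28 antimicrobial and acute-phase genes rose and 3 fell (8 and 2 without wild-type library 2), while 4 rose without wild-type library 1 or 3 and 6 fell without knockout library 2. The neutrophil gene S100a8 was at or near 0 in all 6 libraries, at no more than 0.143 CPM.

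Nox1 and Nos2, epithelial generators of reactive oxygen and nitric oxide, rose, while Arg2, whose product uses the same arginine, fell. Of 13 oxidase and nitric oxide genes 5 rose and 1 fell (6 and 1 without wild-type library 2). Nox1, the colonic NADPH oxidase, was at 5.17, 14.1 and 7.57 CPM in wild type and 43.8, 17.5 and 67.1 CPM in the knockout and rose by 2.29 ± 0.47 (adjusted p 0.0028), or by 2.76 without wild-type library 2. Nos2, the inducible nitric oxide synthase, rose by 5.51 ± 0.49 from 4.85, 1.54 and 1.05 CPM to 143, 126 and 76.9 CPM. Arg2, the mitochondrial arginase, was at 23.7, 29.1 and 30.8 CPM in wild type and 4.28, 6.94 and 2.48 CPM in the knockout. The 3 knockout libraries lay well below every wild-type library, and Arg2 fell by 2.63 ± 0.35 (adjusted p 6.1e-05). The Arg2 level was also lower than in the Rab11-FIP2 knockout, by -1.85 ± 0.35 on the log2 scale (adjusted p 0.0065).

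Goblet cell genes were mostly not called: 4 of 31 rose and 1 fell (5 and 1 without wild-type library 2), beside 6.70% and 6.89% of all genes. Clca4b, a chloride channel regulator, was the exception in size, at 11.4, 19.9 and 6.75 CPM in wild type and 673, 582 and 305 CPM in the knockout, 5.37 ± 0.43 on the log2 scale (adjusted p 1.4e-07). Muc4, a membrane mucin, rose by 1.59 ± 0.23 and Klk1, a tissue kallikrein, fell by 1.68 ± 0.27. The main secreted mucin, Muc2, was at 9245, 10095 and 7070.1 CPM in wild type and 7528, 6891 and 6823 CPM in the knockout, a difference of -0.31 ± 0.32 that was not called.

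**Figure D3:**
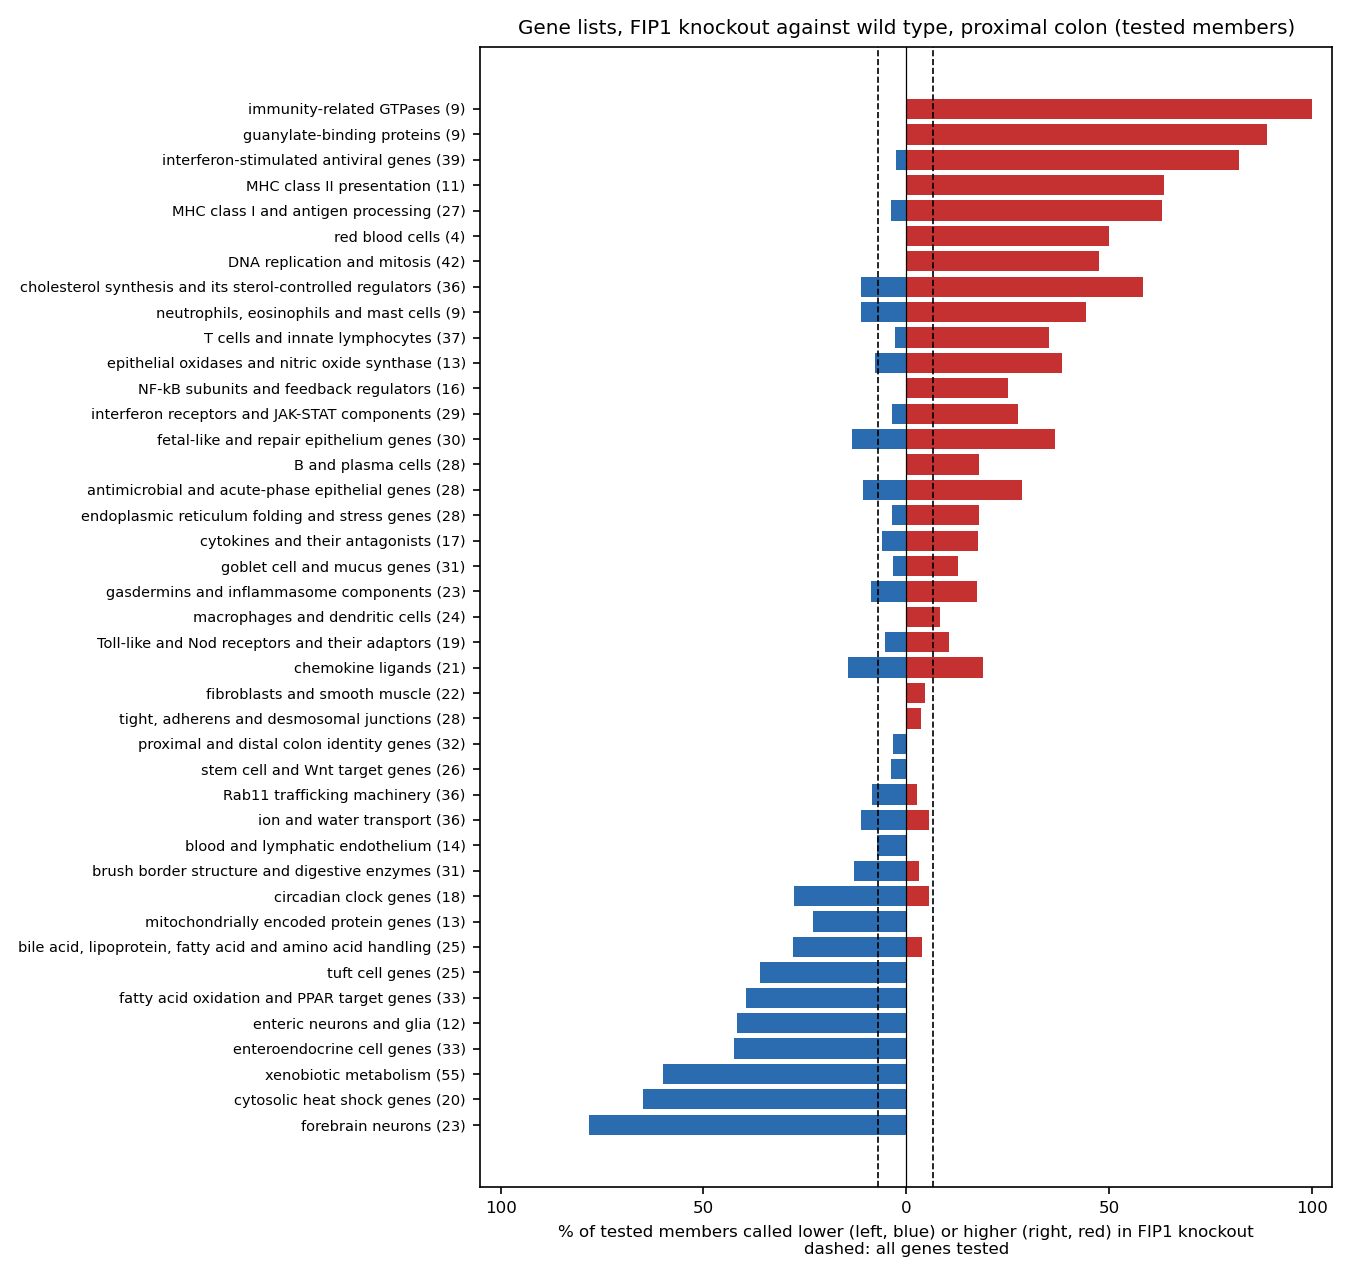
Share of the tested members of each of 41 gene lists called higher (right) or lower (left) in the FIP1 knockout against wild type, in percent; dashed lines mark the share over all tested genes, 6.70% higher and 6.89% lower. Interferon, antigen presentation and cholesterol lists reach furthest to the right, and forebrain, heat shock and xenobiotic lists furthest to the left.

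Cholesterol synthesis genes rose while the sterol export pumps Abcg5, Abcg8 and Abca1 fell. When sterol is scarce in the endoplasmic reticulum the factor SREBP-2 turns on the synthesis enzymes, and when oxysterols accumulate the LXR receptors turn on exporters. Of 36 genes of this network 21 rose and 4 fell (20 and 4 without wild-type library 2), with a median of 0.90. Hmgcs1, an early enzyme of the path, was at 83.7, 106 and 72.5 CPM in wild type and 250.03, 337 and 279.7 CPM in the knockout, and Sqle, squalene epoxidase, at 34.1, 51.2 and 25.6 CPM and 121, 139.6 and 131 CPM. In both genes every knockout library was well above the highest wild-type library. Hmgcs1 rose by 1.73 ± 0.22 (adjusted p 2.9e-05), Sqle by 1.82 ± 0.23 (adjusted p 2.9e-05) and Mvd, a decarboxylase of the same path, by 1.41 ± 0.18 (adjusted p 3.1e-05).

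The 4 genes of this list that fell were Abcg5, Abcg8, Abca1 and Mylip, all known targets of LXR. Srebf1, also a known target of LXR, was called higher, but not without wild-type library 2 or knockout library 1. Whether LXR activity differed was not tested. Abcg5 and Abcg8 form the pump that returns sterols to the gut lumen, Abca1 exports cholesterol to apolipoproteins, and Mylip is a ubiquitin ligase. Abcg5 was at 25.8, 8.90 and 22 CPM in wild type and 1.80, 0.859 and 0.959 CPM in the knockout and fell by 3.99 ± 0.46 (adjusted p 1.3e-05). Abca1 was at 8.24, 13.7 and 13.7 CPM and 2.41, 2.29 and 1.39 CPM and fell by 2.56 ± 0.39 (adjusted p 0.00021). Wild-type library 2 was the lowest of its group for Abcg5 and among the higher ones for Abca1, and every knockout library was below all of wild type in both. Abcg5 and Abcg8 overlap, so part of their reads may be shared.

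**Figure D4:**
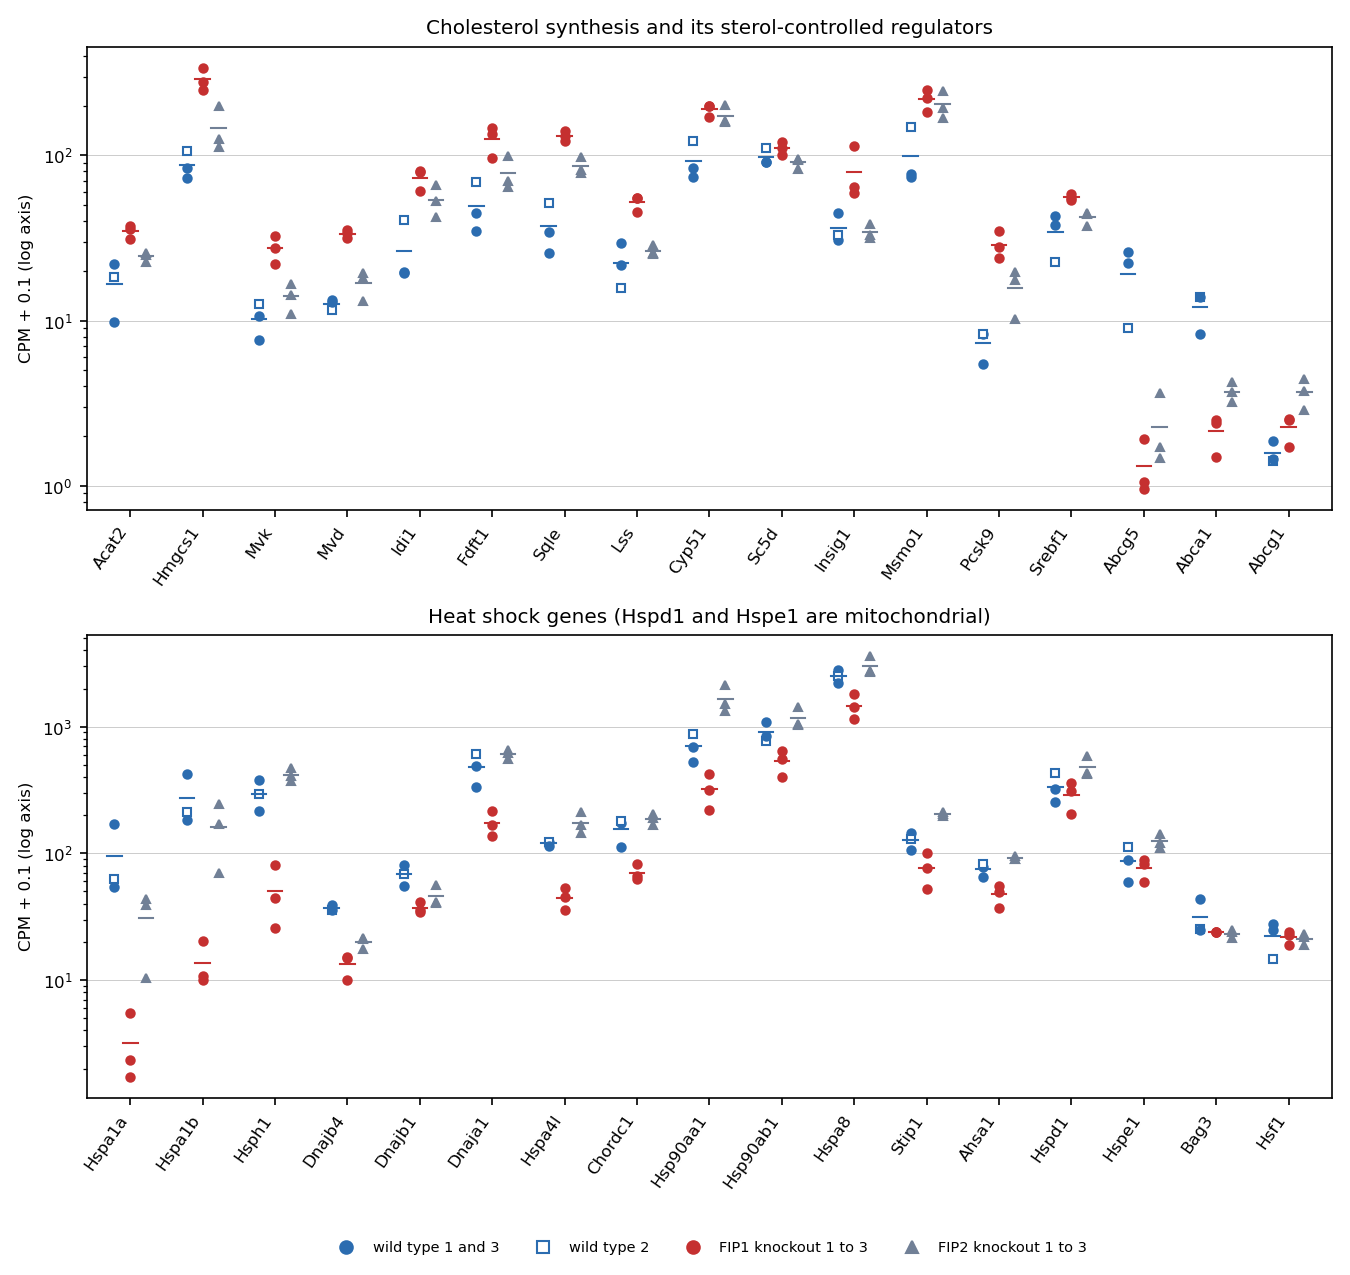
Level of 17 cholesterol genes (upper panel) and 17 heat shock genes (lower panel) in the proximal libraries, as CPM + 0.1 on a log axis; points are libraries of wild type, FIP1 knockout and FIP2 knockout, and bars are group means. Hmgcs1 and Sqle are higher and the exporters Abcg5 and Abca1 lower in the FIP1 knockout than in wild type, and Hspa1a and Hspa1b are lower in the FIP1 knockout than in both other groups.

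Cytosolic chaperones of the heat shock response fell together. These genes are under the factor HSF1 and rise within minutes to hours when proteins misfold, in living tissue and during handling alike. Of 20 genes 13 fell and 0 rose (11 and 0 without wild-type library 2, 8 and 0 without knockout library 2), with a median of -0.83. On the FPKM scale 7 fell. Hspa1b, an inducible Hsp70, was at 425, 212 and 182 CPM in wild type and 20.3, 10.6 and 9.94 CPM in the knockout, and its neighbour and near-identical copy Hspa1a at 170.1, 63.2 and 54.6 CPM and 5.41, 2.22 and 1.61 CPM. Both were highest in wild-type library 1 and did not overlap between the groups. Their log2 differences were -4.33 ± 0.68 and -4.99 ± 0.80 (adjusted p 0.00026 and 0.00033), with reads that may be shared.

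Hsph1, the Hsp110 exchange factor, was at 381, 295 and 214 CPM in wild type and 80.8, 25.7 and 43.9 CPM in the knockout and fell by 2.56 ± 0.39 (adjusted p 0.00021). The co-chaperones Dnajb4 and Dnaja1 were lower, at -1.48 ± 0.18 and -1.46 ± 0.28 on the same scale. Hsf1 was not called, at -0.04 ± 0.19, nor were the mitochondrial chaperones Hspd1 and Hspe1, at -0.21 ± 0.25 and -0.17 ± 0.24. Of these 20 genes 11 were also lower in the FIP1 than in the FIP2 knockout, beside 2.75% of all genes called in either direction in that comparison. Hsph1 differed there by -3.06 ± 0.40 (adjusted p 0.00023) and Hspa1b by -3.57 ± 0.66 (adjusted p 0.0054). The time between death and lysis is not given for either genotype, and its part in this difference was not tested.

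Single digestive enzymes of the brush border fell steeply, while most brush border genes were not called. Of 31 such genes 4 fell and 1 rose (6 and 1 without wild-type library 2), beside 6.89% and 6.70% of all genes, and their summed level overlapped, at 12862, 12018 and 13002 CPM in wild type and 12319, 13724 and 11161 CPM in the knockout. Sis, the sucrase-isomaltase, was at 147, 157 and 124 CPM in wild type and 2.34, 2.86 and 2.22 CPM in the knockout and fell by 5.86 ± 0.34 (adjusted p 3.9e-09). The peptidases Mep1a (meprin alpha) and Enpep (aminopeptidase A) were at 858, 1057 and 1012 and 24.97, 28.9 and 27.5 CPM in wild type and at 249, 377 and 276 and 1.87, 9.16 and 3.31 CPM in the knockout. Both lay wholly below wild type, with log2 differences of -1.70 ± 0.32 and -2.52 ± 0.55 (adjusted p 0.0015 and 0.0044). Naaladl1, a peptidase of the gut surface, fell by 4.87 ± 0.50 from 116, 77.5 and 114 CPM to 3.54, 3.87 and 3.14 CPM.

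Of 25 genes of bile acid, lipoprotein and nutrient uptake 7 fell and 1 rose, with the same counts without wild-type library 2. The count of falls was between 2 and 4 when any other library was left out, and 2 without knockout library 1. Cubn, the endocytic receptor for cobalamin-intrinsic factor, was at 46.4, 24.2 and 57.5 CPM in wild type and 3.27, 3.58 and 2.53 CPM in the knockout and fell by 3.78 ± 0.37 (adjusted p 1.9e-06). Apob, the scaffold of chylomicrons, was at 282, 335 and 406 CPM and 41.4, 79.0 and 45.4 CPM and fell by 2.63 ± 0.27 (adjusted p 3.6e-06). The gene that rose was Slc5a8, a sodium-coupled transporter of short-chain fatty acids, at 157, 158 and 135 CPM and 488, 428 and 289 CPM, 1.42 ± 0.23 on the log2 scale (adjusted p 0.00029).

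Fatty acid oxidation and ketone genes, targets of the nuclear receptor PPAR-alpha, fell in 13 of 33 cases and rose in 0 (16 and 1 without wild-type library 2), with a median of -0.44. Ppara was at 40.8, 25.1 and 49.1 CPM in wild type and 9.76, 11.5 and 9.68 CPM in the knockout and fell by 1.90 ± 0.26 (adjusted p 7.2e-05). Ehhadh, a peroxisomal oxidation enzyme, was at 66.6, 72.1 and 79.8 CPM and 40.9, 38.2 and 40.0 CPM and fell by 0.88 ± 0.16 (adjusted p 0.00092). The PPAR target Angptl4, a secreted lipase inhibitor, went from 13.4, 9.45 and 14.4 CPM to 0.936, 0.644 and 0.523 CPM.

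The list with the most falls was xenobiotic metabolism, the cytochromes, esterases, conjugating enzymes and pumps that clear foreign compounds: 33 of 55 fell and 0 rose (28 and 1 without wild-type library 2), beside 6.89% of all genes, with a median of -1.09. Ces1d, a carboxylesterase, was at 169, 172 and 224 CPM in wild type and 10.2, 8.88 and 7.67 CPM in the knockout. The groups were widely apart and Ces1d fell by 4.41 ± 0.27 (adjusted p 4.1e-09). Sult1c2, a sulfotransferase, fell by 1.75 ± 0.19 (adjusted p 6.2e-06) and Cyp2d26, a cytochrome P450, fell by 2.46 ± 0.32 (adjusted p 4.1e-05). Abcb1a, the P-glycoprotein pump, was at 2408, 2700.3 and 3066 CPM and 663, 1161 and 563 CPM. Carboxylesterase and cytochrome genes lie in families of close copies, and reads may be shared within them.

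**Figure D5:**
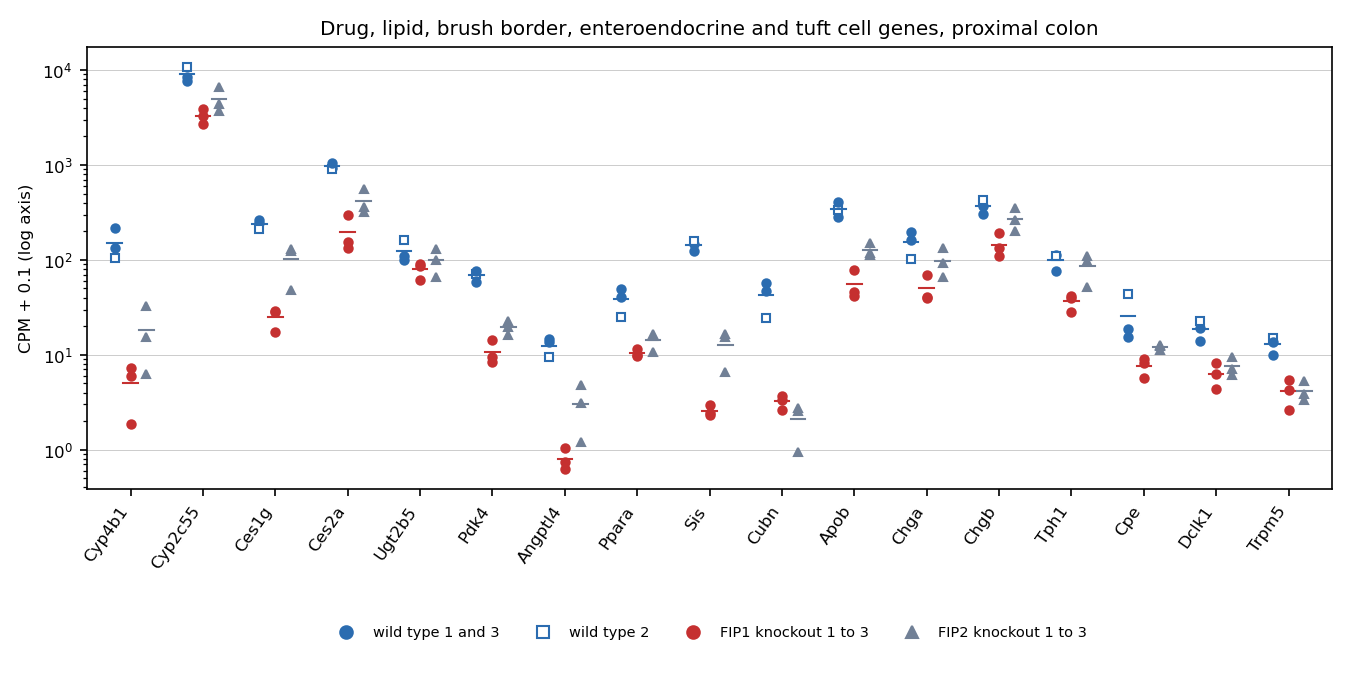
Level of 17 absorptive, metabolic, enteroendocrine and tuft cell genes in the proximal libraries, as CPM + 0.1 on a log axis; points are libraries of wild type, FIP1 knockout and FIP2 knockout, and bars are group means. All of them except Ugt2b5 were called lower in the FIP1 knockout than in wild type, and for Sis, Cubn and Apob the 3 knockout points lie below every wild-type point.

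Enteroendocrine genes fell and none rose: 14 of 33 lower (13 without wild-type library 2), with a median of -1.05. Pcsk1n, an inhibitor of prohormone convertase, was at 9.78, 7.80 and 6.82 CPM in wild type and 1.87, 1.5 and 1.79 CPM in the knockout and fell by 2.23 ± 0.29 (adjusted p 4.3e-05). Pyy, the satiety hormone peptide YY of colonic L cells, was at 39.3, 72.4 and 29.6 CPM and 19.4, 21.3 and 21.0 CPM and fell by 1.19 ± 0.25 (adjusted p 0.0033). Iapp, the hormone amylin, went from 12.2, 10.8 and 6.82 CPM to 0.735, 1.00 and 0.392 CPM. The summed level of the list was 1132, 1244 and 916 CPM in wild type and 525, 418 and 446 CPM in the knockout, with no overlap.

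Tuft cell genes also fell, 9 of 25 with none higher (8 without wild-type library 2, 4 without knockout library 1), with a median of -1.09. Trpm5, the cation channel of taste and tuft cell signalling, was at 9.78, 14.9 and 13.5 CPM in wild type and 2.54, 4.15 and 5.32 CPM in the knockout, and Rgs13, a regulator of G proteins, at 17.0, 27.5 and 14.7 CPM and 3.54, 9.02 and 6.01 CPM. Both were highest in wild-type library 2, and their log2 differences were -1.65 ± 0.35 and -1.67 ± 0.36 (adjusted p 0.0035 and 0.0044). The summed level of tuft cell genes was 537, 746 and 416 CPM in wild type and 269.7, 365 and 459 CPM in the knockout, and these overlap.

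Genes of DNA replication and mitosis rose in 20 of 42 cases and fell in 0 (28 and 0 without wild-type library 2), with a median of 0.94. The count was 12 without wild-type library 1, 11 without wild-type library 3, 10 without knockout library 1 and 8 without knockout library 3. Mcm3, a subunit of the replicative helicase, was at 9.21, 7.80 and 6.90 CPM in wild type and 25.5, 17.5 and 27.5 CPM in the knockout and rose by 1.56 ± 0.23 (adjusted p 0.00017). Ccnd1, cyclin D1, was at 20.8, 22.1 and 15.1 CPM and 59.3, 42.0 and 61.2 CPM and rose by 1.49 ± 0.21 (adjusted p 8.8e-05). Knockout library 2 had the lowest value of its group for Mcm3. In contrast, 1 of 26 stem cell and Wnt target genes was called with or without wild-type library 2, Lgr5, the receptor that marks crypt base stem cells. Lgr5 was at 7.51, 8.13 and 8.40 CPM in wild type and 1.80, 1.93 and 3.57 CPM in the knockout and fell by 1.69 ± 0.39 (adjusted p 0.0065). It was also lower than in the FIP2 knockout, by -1.79 ± 0.38 on the log2 scale (adjusted p 0.016).

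Genes of regenerating, fetal-like epithelium rose in 11 of 30 cases and fell in 4 (11 and 1 without wild-type library 2, 5 higher without wild-type library 3). Areg, the EGF receptor ligand amphiregulin, was at 23.6, 20.9 and 9.22 CPM in wild type and 78.9, 55.1 and 43.7 CPM in the knockout and rose by 1.73 ± 0.30 (adjusted p 0.00074). Ly6e, which with Ly6a and Ly6c1 is also interferon-inducible, rose by 1.48 ± 0.27 (2.07 without wild-type library 2), and Ly6a went from 20.8, 56.0 and 12.7 CPM to 536, 331 and 434 CPM. Krt23, a keratin, fell by 1.78 ± 0.34. Of genes that separate proximal from distal colon 1 of 32 was called, and 0 without wild-type library 2, but 4 were lower without knockout library 2.

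Circadian genes gave 5 lower and 1 higher of 18, and 10 lower and 2 higher without wild-type library 2. Per2, a core clock gene, and Dbp, an output factor that swings over the day, were at 107, 35.4 and 106 and 67.5, 39.9 and 81.2 CPM in wild type and 23.3, 24.1 and 26.3 and 18.2, 25.6 and 10.3 CPM in the knockout. Their log2 differences were -1.75 ± 0.30 and -1.81 ± 0.34 (adjusted p 0.00067 and 0.0014). Wild-type library 2 was the lowest of its group for both, and no library of one group overlapped the other. The hour of sampling is not given, and its part was not tested. The count of lower clock genes was 3 without wild-type library 3, knockout library 1 or knockout library 3, and 8 without knockout library 2.

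Several groups held few calls, to be read beside 6.70% of all genes called higher and 6.89% lower. Of 28 endoplasmic reticulum stress genes 5 rose and 1 fell (8 and 0 without wild-type library 2), but 1 rose without knockout library 3. Asns, the asparagine synthetase of the ATF4 response, rose by 1.06 ± 0.25. Among 36 ion and water transport genes 2 rose and 4 fell (3 and 4 without wild-type library 2). Car2, a carbonic anhydrase, fell by 0.99 ± 0.21, and Aqp1, a water channel, fell by 1.23 ± 0.28. Atp12a, the colonic proton-potassium pump, was at 0.485, 0.769 and 0.225 CPM in wild type and 5.75, 1.43 and 8.24 CPM in the knockout. Its rise of 3.48 ± 0.96 (adjusted p 0.021) was lost when wild-type library 1, wild-type library 3 or knockout library 3 was left out.

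Junction genes gave 1 call of 28, which was lost without wild-type library 2, though 4 were higher without knockout library 3 and 6 were called on the FPKM scale. Of 36 genes of Rab11 trafficking 3 fell, among them Rab11fip1 itself, and 1 rose, shares near or below those of all genes, 6.89% and 6.70%. Without wild-type library 2 these numbers were 3 and 4. Rab4a, the GTPase of the fast recycling route, was at 52.1, 39.9 and 52.9 CPM in wild type and 26.3, 32.2 and 27.2 CPM in the knockout and fell by 0.76 ± 0.16 (adjusted p 0.0041). The partners of the protein were not called, with Rab11a at 0.41 ± 0.18 and Rab25 at -0.07 ± 0.17. Without wild-type library 2 Rab11a was called, at 0.67 (adjusted p 0.012). Of the 13 mitochondrially encoded genes 3 fell, and 1, mt-Co3, fell without wild-type library 2, at -1.20 (adjusted p 0.024).

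Markers of other cells that could come away with the epithelium moved unevenly. Of 37 T cell and innate lymphocyte genes 13 rose and 1 fell, with or without wild-type library 2, and the median was 1.43. Gzmb, a granzyme of cytotoxic cells, was at 0.889, 0.769 and 1.5 CPM in wild type and 16.8, 11.8 and 8.93 CPM in the knockout and rose by 3.53 ± 0.45 (adjusted p 3.7e-05). The summed level of the list overlapped, at 127, 106 and 183 CPM in wild type and 189, 210.0 and 136 CPM in the knockout. Ptprc, the pan-leukocyte CD45, was not called, at 14.4, 18.2 and 17.7 CPM and 26.3, 27.1 and 18.2 CPM. Cd3e, a chain of the T cell receptor complex, was at 0.970, 0.879 and 1.57 CPM and 3.54, 3.58 and 2.48 CPM. The part of T cells in the interferon result was not tested.

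Mast cell protease genes rose. Mcpt1, a protease of mucosal mast cells, was at 0.323, 0.769 and 0.675 CPM in wild type and 10.5, 63.6 and 15.5 CPM in the knockout, highest in knockout library 2, and rose by 5.67 ± 0.69 (adjusted p 2.1e-05). Mcpt2, its neighbour and close relative, rose by 4.56 ± 0.64. The B and plasma cell list of 28 had 5 members higher and 0 lower (4 and 0 without wild-type library 2), all 5 of them immunoglobulin or J chain genes. Igkc, the kappa light chain, was at 5.90, 7.25 and 4.05 CPM and 103, 198 and 12.5 CPM and rose by 4.20 ± 0.78 (adjusted p 0.0012). Neutrophil, eosinophil and mast cell genes gave 4 rises and 1 fall of 9 tested (4 and 0 of these 9 without wild-type library 2), fibroblast genes 1 rise of 22 and endothelial genes 1 fall of 14, both the same without it, and red blood cell genes 2 rises of 4 (1 without wild-type library 2).

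Forebrain genes fell in 18 of 23 cases (14 without wild-type library 2). Ddn, a protein of neuronal dendrites, was at 2.02, 17.3 and 2.85 CPM in wild type and 0, 0 and 0.0872 CPM in the knockout, and Mobp, of oligodendrocytes, at 1.94, 9.45 and 1.72 CPM and 0, 0 and 0 CPM. Wild-type library 2 was the highest, and wild-type libraries 1 and 3 were also above 1 CPM, so leaving out library 2 did not remove these calls. Camk2b, a kinase subunit not limited to neurons, was even across the group, at 17.0, 12.4 and 15 CPM and 1.80, 1.93 and 2.0 CPM. It fell by 2.95 ± 0.26 (adjusted p 4.7e-07). Of the 12 enteric neuron and glia genes 5 fell (3 without wild-type library 2, 2 without any 1 of the knockout libraries). Whether enteric nerve tissue contributes to these genes was not tested.

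Some genes were close to absent in one genotype and clearly present in the other. With limits set after the values were seen, at most 0.5 CPM in each library of one group and at least 5 CPM in each of the other, 12 genes were present in the knockout alone and 3 in wild type alone. All 15 were called, but limits this far apart make a call close to certain, so the calls add no support. Of the 12 genes, 5 passed the direct test against the proximal FIP2 knockout, and those are named below. Among those that did not pass were Tgtp1 and Ly6c1. Their means were 16.7 and 4.51 CPM in the proximal FIP2 knockout and 13.5 and 11.3 CPM in the proximal FIP1 knockout. Ftl2-ps, a processed copy of the ferritin light chain gene (chr4:125504288-125504839), had 1 read in wild type over 3 libraries and 27280 reads in the knockout, at 557, 382 and 593 CPM. It was at 0 in each of the 3 FIP2 knockout libraries of the proximal colon. Zfp990 (chr4:145510759-145539188), a zinc finger gene, had 0 reads in wild type and was at 10.1, 11.4 and 9.20 CPM in the knockout, at least 117-fold higher on a floor of 3 counts over the group. Ftl1-ps2, Zfp979 and Abca13 likewise exceeded the FIP2 knockout, by 7.27 ± 0.61, 6.91 ± 0.61 and 3.38 ± 0.35 on the log2 scale (adjusted p 7.6e-07, 1.1e-06 and 1.1e-05).

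The genes lost in the knockout were Pnp2, Pbld1 and Cyp3a25. Pnp2 (chr14:50955992-50964749), a purine nucleoside phosphorylase, was at 25.4, 27.0 and 30.4 CPM in wild type and 0.334, 0.215 and 0.436 CPM in the knockout and fell by 6.30 ± 0.38 (adjusted p 4.1e-09). Its level in the FIP2 knockout was 14.8, 10.9 and 9.47 CPM. Pbld1 was at 15.4, 12.5 and 17.9 CPM and 0.334, 0 and 0.261 CPM, and at 0.764, 1.42 and 1.68 CPM in the FIP2 knockout. These genes lie on different chromosomes from Rab11fip1. Loss of Rab11-FIP1 and a difference in strain background between the lines cannot be told apart for them, and for the processed copies reads of the parent gene may be shared.

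Calls near the deleted locus were counted as well. These counts do not measure strain background, which was not tested. Within 1 Mb of Rab11fip1 0 of 10 tested genes were called, and within 5 Mb 11 of 72 were (15.3%), 4 higher and 7 lower, beside 13.6% of all genes. The largest among them was Ido1, the interferon-induced enzyme that breaks down tryptophan, at 11.6, 22.3 and 9.45 CPM in wild type and 186, 64.6 and 88.1 CPM in the knockout, 2.98 ± 0.36 on the log2 scale (adjusted p 2.3e-05). Sfrp1, a secreted inhibitor of Wnt, rose by 2.47 ± 0.69 (4.38 without wild-type library 2), and Letm2 fell by 1.39 ± 0.34.

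The same contrast in the distal colon allowed the difference between segments to be tested as an interaction, which uses other libraries for both genotypes. It passed for 114 of 17692 genes (0.644%). Abcg5 fell by 3.99 ± 0.46 in the proximal knockout and stood at 0.12 in the distal colon, an interaction of -4.11 ± 0.59 (adjusted p 0.0030). Distal levels of Abcg5 were 17.1, 13 and 21.1 CPM in wild type and 12.7, 14.3 and 28.8 CPM in the knockout. Cubn was at -0.69 in the distal colon, with an interaction of -3.09 ± 0.58 (adjusted p 0.017), and Ppara at -0.24, with -1.66 ± 0.38 (adjusted p 0.049). Cxcl5 was lower in the proximal and higher in the distal knockout, at 3.28 there, an interaction of -6.29 ± 0.97 (adjusted p 0.0039). Clca4b rose in both segments and more in the distal one, at 8.75. No IRG, GBP or class II gene passed the interaction test by edgeR. Of the 39 antiviral genes 1 passed and of the 27 class I genes 1, each with a negative proximal minus distal difference.

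The FIP1 knockout was also compared directly with the FIP2 knockout of the same segment, since the comparisons of each with wild type share their control libraries. The direct test called 486 of 17692 genes (2.75%), and 945 when wild-type library 2, which enters this test through the shared estimate of spread, was left out. Of the cholesterol genes 10 of 36 were higher in the FIP1 knockout, among them Mvd by 0.99 ± 0.17 (adjusted p 0.0035) and Hmgcs1 by 0.99 ± 0.21 (adjusted p 0.016). Of the xenobiotic genes 9 of 55 were lower and 2 higher, and of the enteroendocrine genes 5 of 33 were lower. None of the 9 IRG, 9 GBP, 27 class I and 11 class II genes passed, while of the 39 antiviral genes 3 were higher in the FIP1 knockout and 0 lower. Igtp was at 36.4, 104 and 81.3 CPM in the FIP2 knockout, a difference of -0.01 ± 0.34 from the FIP1 knockout, and H2-Aa at 589, 1287 and 1406 CPM, a difference of -0.91 ± 0.39. A p-value that misses the threshold does not show that the knockouts are alike in these genes.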

How the data were processed

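Per the submitters' processing notes, the authors used STAR 2.5, TopHat, HTSeq 0.6.1 and DESeq2 on GRCm38 (mm10), from libraries of poly-A-selected RNA read at 150 bases. The authors deposited 1 table of raw read counts per gene and 1 of FPKM, each over all 18 libraries. Whether counting used strand is not given in the sources used here, so overlapping genes may share reads.

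From the deposited counts, edgeR 4.0.16 (R 4.3.3) fitted a quasi-likelihood model with TMM normalization and its default filter on low counts to all 18 libraries in 6 groups, which share 1 estimate of the spread. The contrast of FIP1 knockout against wild type in the proximal colon was adjusted by Benjamini-Hochberg over 17692 genes and called under 0.05. SE is the log2 difference divided by the square root of F. CPM values use TMM library sizes. On the deposited FPKM values, limma 3.58.1 tested log2(FPKM + 1) and log2(FPKM + 0.1), and DESeq2 1.42.0 tested counts, both as alternatives. No 2 libraries of a group agreed within sampling noise. The pipeline was tested on simulated data.

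Named genes were the targets, the 20 largest rises and falls, and up to 6 called members of each list by adjusted p. Genes within 5 Mb of Rab11fip1 were also named. The largest rises and falls were taken among called protein-coding genes with at least 5 CPM and no overlap between groups. Predicted genes (Gm and Rik symbols) were left out of these. They also had to be called in the same direction without the wild-type library that stood apart. For the largest rises and falls, a call without that library was therefore set by the selection and is no independent check. Isg15, Ifit1bl2, H2-T3, Abca1, Abcg8, Mylip, Srebf1, Abcb1a, Cd3e and the genes present in 1 genotype alone were named after their values were seen. Members and lists were chosen with earlier results of these data known. Genes with no value above the filter were not tested, and promoters missing from the RefSeq table were not searched. A few members of the lists are counted in them but not reported by name here.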

Additional observations from a re-analysis of the deposited data

Results flagged for a closer look

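For 26 of the named genes the difference between FIP1 knockout and wild type itself differed between the proximal and the distal colon, by edgeR's quasi-likelihood test of the interaction at an adjusted p under 0.05 over all genes. Values are the proximal minus the distal log2 difference.

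In sterol and lipid handling the proximal fall was the deeper one. Abcg5, the sterol exporter, differed by -4.11, from -3.99 in the proximal to 0.12 in the distal colon. Apob differed by -2.15, Cubn by -3.09, Pdk4, the kinase that spares glucose, by -2.42 and Ppara by -1.66. Among digestive and xenobiotic enzymes Sis differed by -4.37, Ces1d by -1.95 and Sult1c2 by -1.58. Cyp3a25 differed by -10.29, but it had no reads in the distal wild-type libraries, so its distal fit depends on the prior count and is no bound.

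Of the enteroendocrine genes Chgb, a granin of secretory granules, differed by -1.96 and Cpe, a prohormone-processing peptidase, by -2.50. Cxcl5 differed by -6.29, from -3.01 in the proximal to 3.28 in the distal colon. Reg3g, an antibacterial lectin, rose in both segments and differed by -4.84, and Clca4b by -3.38. In the other direction Pla2g4c differed by 6.30, Pla2g5 by 3.52 and Ly6g by 3.28.

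The remaining genes are ones with neural expression that were highest in wild-type proximal library 2 or fell with that list. Camk2a differed by -5.01, Ddn by -7.19, Gria1 by -7.19, Grin2b by -5.16, Kif5a by -4.57, Slc1a2 by -4.13 and Mobp by -9.06. Mobp was at 0 in all 3 proximal knockout libraries, so its fitted value is no bound. Ehd3 differed by -5.11 and lost its proximal call without wild-type library 2. Gja1, the gap junction protein connexin 43, differed by -4.53.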

How the results depend on the processing

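No gene called in the proximal comparison was called in the opposite direction under any alternative run, and none of the named genes reversed its sign. Fitted to the 6 proximal libraries alone, edgeR called 1287 genes, 678 higher and 609 lower. On the FPKM scale with limma the lower genes numbered 533 with log2(FPKM + 1), 528 with log2(FPKM + 0.1) and 619 with no filter, against 1219 in counts, and the higher share was 70.6%, 72.2% and 62.8%. A minimum of 10 CPM in 3 libraries left 9773 genes tested and 788 called higher, since fewer genes entered. Leaving out each library in turn gave between 1509 (without knockout library 1) and 2334 genes called (without wild-type library 2), between 798 and 1201 higher and between 711 (without knockout library 1) and 1133 lower. Other alternatives (RLE normalization, no filter, DESeq2, mitochondrial genes removed) stayed within 1.5 times of 2404, from 2403 to 3056.

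The interaction count of 114 was 644 with no filter, 57 at 10 CPM and 339 with DESeq2, and from 44 (without knockout library 3) to 154 without single libraries, 49 without knockout library 1. The count against the FIP2 knockout, 486, was 1398 with no filter and 1067 with DESeq2, and from 190 (without knockout library 2) to 945 (without wild-type library 2), 251 without knockout library 1. The cause of these shifts was not tested.

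Replicate numbers are shared between the groups but no label says that they mark a shared animal, litter or day. Deviations from the group means correlated at 0.04, −0.12 and −0.12 between same-numbered proximal knockout and proximal wild-type libraries, and these were not treated as paired. Whether same-numbered proximal and distal libraries of a genotype share an animal was not checked. The interaction test and the shared estimate of the spread treat all 18 libraries as independent. With a replicate block, 2434 genes were called in the fit to 18 libraries (1222 higher and 1212 lower) and 673 in the fit to 6 libraries (378 higher and 295 lower). At this depth, in simulated libraries of the same sizes, 41% of 100 genes changed 2-fold and 83% of 100 changed 4-fold were called among 17150 tested, so smaller differences may go uncalled. Only these genes were changed there and 129 genes were called, against 2404 in the data. The adjusted threshold depends on how many genes differ, so these percentages are not the recovery of this comparison.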
